A study of Mus musculus with 36 samples.

Results

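The Rab GTPase genes were taken as a family so that Rab31 could be set against its relatives. Members were all gene names made of Rab, a number and at most a further letter and digit, which gave 53 of the 23903 genes in either count table. The Lrig1 GL table held 49 of them among 20181 genes, the Lgr5 GL table held 53 among 22587, and 17 other names that start with Rab and a digit did not match. Rab31 was itself chosen by its readout, the time course in Lrig1 GL cells, so its values there and its differences between populations are described without a test. The study made 36 mini-bulk RNA-seq libraries, and 150 tdTomato+ cells were sorted for each. The cells came from tail skin of mice with an Lrig1-EGFP-ires-CreERT2 or an Lgr5-EGFP-ires-CreERT2 allele together with the reporter Rosa26-fl/STOP/fl-tdTomato, and all of them had received topical hydroxytamoxifen once. The promoters of Lrig1 (upper hair follicle, junctional zone) and Lgr5 (lower hair follicle) drive the recombinase, and all later progeny keep the tdTomato label. Each population is also its own mouse line and count table, so differences between populations cannot be told apart from those of line or library set. Both populations had 3 libraries before injury (0W), at 1, 2, 4 and 8 weeks after a full-thickness punch wound of 2 mm (1W, 2W, 4W, 8W), and 1 week after a second overlapping wound made at 8 weeks (9W). Mice were 7 to 9 weeks old at the first wound, so time after wounding and age at collection cannot be told apart.

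Rab proteins are small GTPases that switch between a GTP-bound form on membranes and a GDP-bound form held in the cytosol. Each marks particular compartments and recruits effectors that form, move, tether or fuse vesicles. In epithelial cells they sort integrins, growth factor receptors and junction proteins between endosomes and the cell surface, which is a part of polarity and migration. Rab31, also called Rab22b, belongs with Rab22a, Rab5a, Rab5b, Rab5c and Rab21 to the early endosome branch, and is known for traffic between the trans-Golgi network and endosomes and for traffic of the EGF receptor.

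Rab31 lies on chr17:65651729-65772752 of GRCm38, on the minus strand, and its closest relative Rab22a on chr2:173659760-173707343, on the plus strand. The promoter sequences of both are shown as those of a closely related pair, and those of Rab1a and Rab1b because the share of Rab1a in the counts of this pair differed between times. Each runs from 250 bases before to 50 after the RefSeq start (GRCm38.p6) and is read 5′ to 3′ on the gene's strand. RefSeq promoters were found for 43 of the 53 members. Capitals mark the CCAAT box (CCAAT) and the GC box (GGGCGG), searched on both strands, where neighbouring matches can touch. The Rab31 window is chr17:65772703-65773002, that of Rab22a chr2:173659595-173659894, that of Rab1a chr11:20201162-20201461 and that of Rab1b chr19:5106947-5107246.
Rab31: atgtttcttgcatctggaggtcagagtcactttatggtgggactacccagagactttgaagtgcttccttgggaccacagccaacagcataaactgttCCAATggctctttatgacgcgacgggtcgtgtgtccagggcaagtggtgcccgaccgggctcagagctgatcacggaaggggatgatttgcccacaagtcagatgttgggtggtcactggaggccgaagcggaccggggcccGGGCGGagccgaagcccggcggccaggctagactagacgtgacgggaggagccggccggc
Rab22a: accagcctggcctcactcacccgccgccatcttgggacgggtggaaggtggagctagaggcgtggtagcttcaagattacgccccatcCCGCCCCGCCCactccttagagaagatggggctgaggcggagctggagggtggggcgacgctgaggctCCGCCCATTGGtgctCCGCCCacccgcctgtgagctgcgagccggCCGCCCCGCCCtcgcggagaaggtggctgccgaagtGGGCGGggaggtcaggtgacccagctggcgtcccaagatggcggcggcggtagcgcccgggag
Rab1a: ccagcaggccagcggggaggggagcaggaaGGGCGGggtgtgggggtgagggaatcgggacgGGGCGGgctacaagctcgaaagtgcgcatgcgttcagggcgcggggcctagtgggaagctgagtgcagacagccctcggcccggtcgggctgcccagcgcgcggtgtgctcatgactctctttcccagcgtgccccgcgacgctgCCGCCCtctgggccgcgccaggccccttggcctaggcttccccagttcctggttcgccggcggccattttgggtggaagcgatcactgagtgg
Rab1b: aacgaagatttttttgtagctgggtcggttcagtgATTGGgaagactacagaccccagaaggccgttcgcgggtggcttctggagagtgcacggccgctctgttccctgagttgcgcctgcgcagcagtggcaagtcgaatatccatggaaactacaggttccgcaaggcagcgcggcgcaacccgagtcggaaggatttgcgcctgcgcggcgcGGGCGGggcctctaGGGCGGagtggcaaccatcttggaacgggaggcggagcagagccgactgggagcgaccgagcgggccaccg
Rab31 had 1 CCAAT box and 1 GC box, against 1 and 7 for Rab22a, 0 and 3 for Rab1a and 1 and 2 for Rab1b. Among all 32851 promoters of this length 37.4% held a CCAAT box and 35.7% a GC box, and 23 and 38 of the 54 promoters of members did. The AP-1 motif (TGACTCA or its reverse complement TGAGTCA) was in none of these 4 windows, in 2 of the 54 promoters of members and in 5.2% of all promoters. Rab31's window had a GC content of 60.3% and 19 CpG sites, beside medians of 61.2% and 20 for promoters of members and 52.7% and 7 for all promoters. These matches describe the letters in the windows.

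Lrig1 GL libraries held 765252 to 3365666 counts each, and Lgr5 GL libraries 1297798 to 6960537. Levels are given as CPM (counts relative to library size) after scaling all 36 libraries together by TMM, a method that equalises the bulk of genes between libraries, and the tests were fitted within each population. Libraries had no molecular identifiers, so counting intervals cover the counting error of reads only. They leave out amplification and the spread between libraries. Keratinocyte markers summed to between 28400 and 43700 CPM in Lrig1 GL and 18500 and 49200 CPM in Lgr5 GL libraries, with 10 of 10 listed genes present. Fibroblast markers summed to between 6.69 and 99.8 CPM (6 of 10 listed genes in the table) in Lrig1 GL and between 141 and 687 CPM (9 of 10) in Lgr5 GL libraries. The Lrig1 GL libraries at 8W stood apart. Mitochondrial genes took 10.9 to 14.4% of their counts against 3.15 to 5.38% at 0W, and the mean GC content of their other counts was 46.8 to 47.2% against 49.6 to 49.8%. At 9W the Lrig1 GL libraries had 4.89 to 8.66% mitochondrial counts and a mean GC content of 46.9 to 48.1%. Lgr5 GL libraries had 1.19 to 3.64% mitochondrial counts and a mean GC content of 49.4 to 50.3% at 0W and 50.2 to 50.6% at 8W. A single gene, Gm12415, took 12.0 to 52.1% of the counts of Lgr5 GL libraries and at most 0.000212% in Lrig1 GL libraries.

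In Lrig1 GL cells Rab31 went from nearly no counts before injury to one of the more abundant Rab genes 1 week after each wound. It had 0, 4 and 5 counts at 0W, which is 0, 1.40 and 2.83 CPM, and 3 counts, taken as the floor of detection, correspond to 1.32, 1.05 and 1.70 CPM in these libraries. At 1W it had 108, 26.9 and 84.3 CPM in replicates 1 to 3. The 2W libraries had 44.3, 30.1 and 37.5 CPM, the 4W libraries 21.9, 24.4 and 27.8 CPM, and the 8W libraries 20.2, 9.01 and 19.8 CPM. At 9W the levels were 103, 118 and 87.0 CPM. Every Lrig1 GL library after injury was thus above all 3 at 0W, and the libraries at 9W were above all those at 2W, 4W and 8W, while 1W and 9W overlapped. Summed over 3 libraries, the 371 counts at 1W were 59.9 times the level of the 9 counts at 0W (95% counting interval 31.2 to 132), the 118 counts at 8W 13.2 times (6.71 to 29.5) and the 739 counts at 9W 80.8 times (42.3 to 177). The fit gave log2 fold changes of 5.72 at 1W, 4.72 at 2W, 4.13 at 4W, 3.49 at 8W and 6.14 at 9W. These values chose the gene, and the counting intervals, taken on pooled reads, leave out the spread between libraries.

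**Figure D1:**
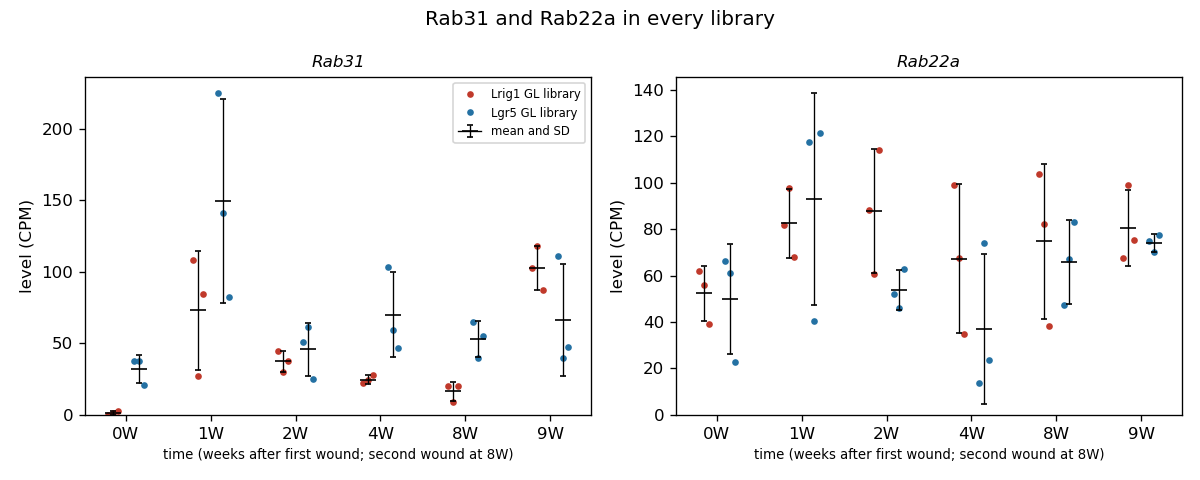
Level of Rab31 (left) and Rab22a (right) in CPM in each of the 36 libraries by time, Lrig1 GL in red and Lgr5 GL in blue, with the mean and SD of 3 libraries as black bars. Rab31 in Lrig1 GL cells goes from 0 to 2.83 CPM at 0W to 87.0 to 118 CPM at 9W, and in Lgr5 GL cells from 20.7 to 37.9 CPM at 0W to 82.5 to 225 CPM at 1W.

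In Lgr5 GL cells, whose values were not the readout that chose Rab31, the gene was present before injury and rose at 1W. The tests were still chosen with earlier results of these data known. Rab31 had 37.8, 37.9 and 20.7 CPM at 0W and 225, 141 and 82.5 CPM at 1W. Its groups did not overlap, as for 19.9% of all genes. Its log2 fold change at 1W was 2.18 (SE 0.49, 95% CI 1.16 to 3.21, adjusted p = 0.0372 in edgeR's quasi-likelihood test, higher in 3 of 3 libraries). Gm12415 took 49.7, 40.5 and 12.0% of the counts of the 1W replicates 1 to 3, in the same order as their Rab31 levels, and 29.0, 32.9 and 45.4% at 0W, and its part in this change was not tested. A gene was called against 0W when this p, adjusted over all genes, was below 0.05 and the log2 fold change above 1 in size, which held for 1.29% of all genes in this comparison. The 2W libraries had 50.8, 61.3 and 25.2 CPM, the 4W libraries 104, 59.6 and 46.8 CPM, the 8W libraries 65.0, 39.8 and 55.0 CPM and the 9W libraries 111, 39.8 and 47.8 CPM. At 2W, 4W, 8W and 9W the log2 fold changes of 0.50, 1.05, 0.71 and 1.03 were not called (adjusted p from 0.445 to 0.982). From 1W to 9W the log2 difference was -1.15 (95% CI -2.14 to -0.16, adjusted p = 0.237). Over 26 alternative settings the 1W change was called in 16, with a log2 fold change from 1.22 with surrogate variables to 2.46 and an adjusted p from 0.000729 to 0.293. It was not called with surrogate variables (adjusted p = 0.293) and in 9 fits without a library, which gave log2 fold changes from 1.77 (without 1W replicate 1) to 2.32 and adjusted p from 0.0512 to 0.139. The libraries in question were 0W replicates a, b and c, 1W replicates 1 and 2, 4W replicate b, 8W replicates b and c and 9W replicate 3.

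Before injury Lrig1 GL cells had less Rab31 than Lgr5 GL cells. They had 1.41 ± 1.42 CPM (SD, n = 3) against 32.1 ± 9.91 CPM (n = 3), and at 9W the levels were 103 ± 15.6 and 66.2 ± 39.1 CPM. The fitted change in Lrig1 GL cells exceeded that in Lgr5 GL cells by 3.52 at 1W, 2.85 at 8W and 5.17 at 9W on the log2 scale, which is given as a description. Fibroblast markers differed between the populations in the same direction at 0W, with sums of 10.6 to 40.2 CPM in Lrig1 GL libraries and 291 to 687 CPM in Lgr5 GL libraries. Within the 0W libraries of Lgr5 GL cells, replicate c had the highest sum of 687 CPM and the lowest Rab31 level of 20.7 CPM. Within Lrig1 GL cells they were low at 9W, with sums from 8.83 to 18.5 CPM, while Rab31 was at its highest. At 1W replicate 3 had the highest sum of the 18 Lrig1 GL libraries, 99.8 CPM, beside 84.3 CPM of Rab31. The Lgr5 GL sums were 318 to 497 CPM at 1W, overlapping 0W. Fewer cells of a type and less RNA per cell cannot be told apart in these bulk libraries, and the part of fibroblasts in the Lgr5 GL level of Rab31 was not tested.

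Measured per kilobase of exon, the scale on which genes can be compared, Rab31 moved through the family's order. It ranked 43 of 49 in Lrig1 GL cells at 0W, with 0.370 ± 0.371 CPM per kb (SD, n = 3), 17 at 1W, 26 at 2W, 32 at 4W, 36 at 8W and 14 at 9W, with 26.9 ± 4.09 CPM per kb. Among the 53 members in Lgr5 GL cells it ranked 30 at 0W, 12 at 1W, 21 at 2W, 17 at 4W, 24 at 8W and 16 at 9W. The mean of Rab22a was between 7.26 and 12.2 CPM per kb at the 6 times in Lrig1 GL cells and between 5.15 and 12.9 CPM per kb in Lgr5 GL cells, and it was called in no comparison. Its log2 fold change was 0.65 (95% CI -0.25 to 1.54) at 1W and 0.56 (-0.33 to 1.46) at 9W in Lrig1 GL cells and 0.88 (-0.24 to 2.00) at 1W in Lgr5 GL cells. Its Lrig1 GL libraries at 1W (68.0 to 97.6 CPM) and 9W (67.6 to 98.9 CPM) were all above those at 0W (39.0 to 62.2 CPM), and so were its Lgr5 GL libraries at 9W (69.9 to 77.6 CPM against 23.0 to 66.5 CPM). Of all genes, 13.9% at 1W and 24.1% at 9W were apart from 0W in Lrig1 GL cells, and 12.3% at 9W in Lgr5 GL cells. Rab31 made up 3.07 ± 3.42% (SD, n = 3) of the counts of this pair at 0W, 44.6 ± 19.9% at 1W, 20.1 ± 12.6% at 8W and 56.2 ± 3.64% at 9W in Lrig1 GL cells. The share in Lgr5 GL cells was 40.6 ± 5.92% at 0W, 61.3 ± 19.1% at 1W, 44.9 ± 11.3% at 8W and 44.7 ± 13.1% at 9W.

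The other early endosome genes were Rab5a, Rab5b and Rab5c, which control fusion of early endosomes, Rab21, which carries integrins, and Rab20, a regulator of phagosomes and endosomes. Rab5c was the most abundant of them, with 47.3 ± 14.4 CPM per kb (SD over 18 libraries) in Lrig1 GL cells against 35.9 ± 11.7 in the Lgr5 GL population. Rab5a had 18.1 ± 7.60 and 15.8 ± 6.17 CPM per kb and Rab5b 9.22 ± 3.17 and 12.9 ± 5.42 CPM per kb, and Rab5a, Rab5b and Rab5c were called in no comparison. Besides Rab31, Rab21 was the member of this group that was called, in Lrig1 GL cells. It had 45.9, 48.0 and 35.1 CPM at 0W, 264, 110 and 124 CPM at 8W and 131, 142 and 118 CPM at 9W, with no overlap. Rab21 rose by a log2 fold change of 1.88 at 8W (SE 0.37, adjusted p = 0.0202) and 1.54 at 9W (SE 0.36, adjusted p = 0.0471), and was also called across the time course (adjusted p = 0.0373). Rab21 in Lgr5 GL cells stayed between 28.4 and 84.6 CPM in all 18 libraries and was not called. Rab20 was at 24.1 ± 16.5 CPM at 0W, 1.12 ± 0.83 CPM at 2W and 2.69 ± 2.68 CPM at 9W in Lrig1 GL cells, where its log2 fold change of -3.24 (SE 1.31, adjusted p = 0.2) at 9W was not called.

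Among genes of the ER and Golgi, Rab18, which acts at the ER and lipid droplets, and Rab1b, which acts from ER to Golgi, were called in Lrig1 GL cells in opposite directions. Rab18 had 205, 136 and 168 CPM at 0W, 588, 467 and 439 CPM at 8W and 586, 862 and 660.5 CPM at 9W, all above 0W. It rose by a log2 fold change of 1.48 at 8W (SE 0.39, adjusted p = 0.0481) and 1.99 at 9W (SE 0.39, adjusted p = 0.0242). At 2W a single library, replicate c, had 647 CPM and the others had 243 and 179 CPM. The mean GC content of counts in replicate c was 47.7%, against 49.6 and 49.8% in the others. Its mitochondrial counts were 8.99%, against 5.6 and 5.25%, and the part of these shifts in its Rab18 level was not tested. A further gene, AC131796.2, shares 168 exon bases with Rab18 on its strand. Rab1b had 743, 464 and 663 CPM at 0W, 205, 291 and 215 CPM at 8W and 252, 189 and 250.4 CPM at 9W, all below 0W. It fell by 1.47 at 8W (SE 0.33, adjusted p = 0.0304) and fell by 1.49 at 9W (SE 0.33, adjusted p = 0.036) on the log2 scale, and was called across the time course (adjusted p = 0.0311). At 1W Rab1b was at 351, 289 and 319 CPM, below all 0W libraries but not called (log2 fold change -0.96, adjusted p = 0.266). Rab1b in Lgr5 GL cells stayed between 253 and 566 CPM and Rab18 between 105 and 355 CPM, and neither was called. The change at 8W differed between the populations for Rab18 (log2 difference 2.10, SE 0.54, adjusted p = 0.0486) and for Rab1b (-1.77, SE 0.39, adjusted p = 0.0278), by an interaction test that called 1.11% of all genes. At 9W these differences were 2.44 (adjusted p = 0.054) and -1.59 (adjusted p = 0.0766).

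**Figure D2:**
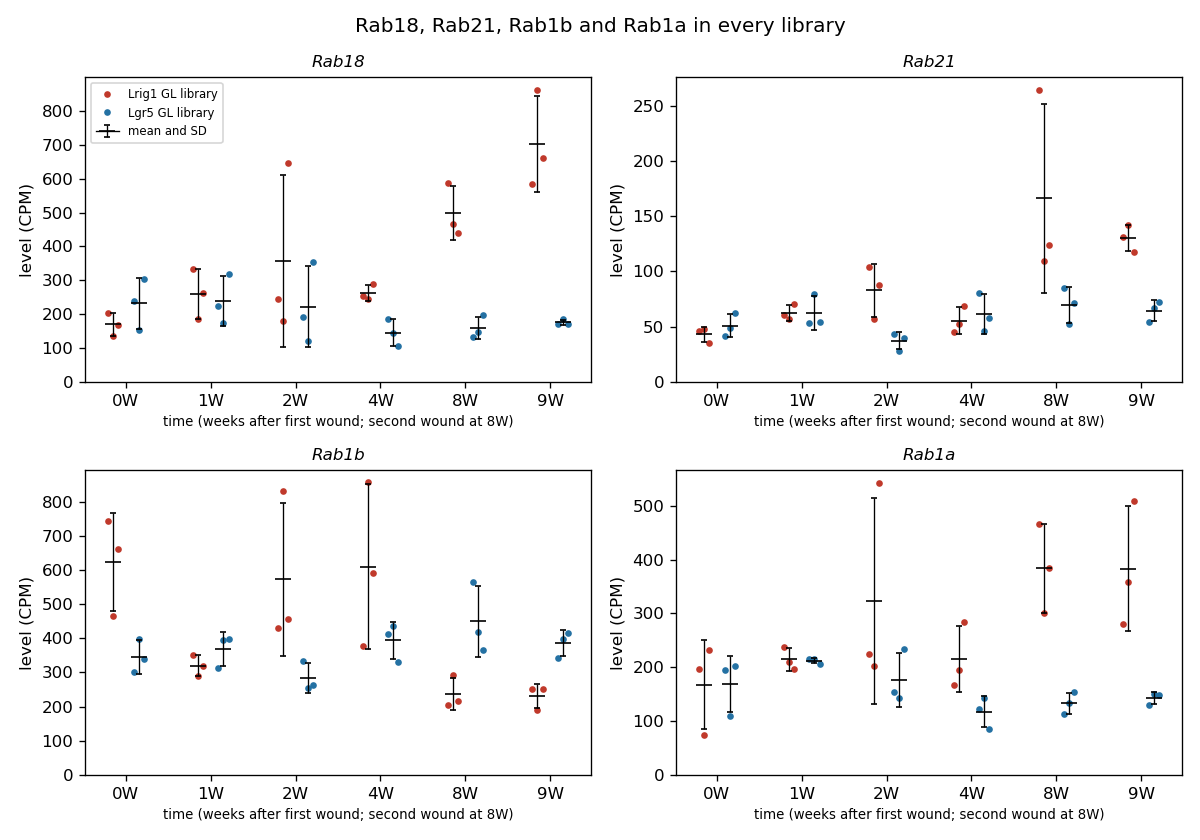
Level of Rab18, Rab21, Rab1b and Rab1a in CPM in each library by time, Lrig1 GL in red and Lgr5 GL in blue, with the mean and SD of 3 libraries in black. In Lrig1 GL cells Rab18 and Rab21 are above all 0W libraries at 8W and 9W and Rab1b is below them, while Lgr5 GL libraries at 0W, 8W and 9W lie closer together.

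Rab1a, the close homologue of Rab1b in ER to Golgi transport, had no called change. It had 197, 74.3 and 232 CPM at 0W in Lrig1 GL cells, 466, 301 and 385 CPM at 8W and 281, 358 and 510 CPM at 9W, above 0W in every library but not called (log2 fold change 1.13, adjusted p = 0.126 at 8W, and 1.14, adjusted p = 0.167 at 9W). Rab1a made up 20.2 ± 6.10% (SD, n = 3) of the counts of the pair at 0W, 40.2 ± 2.00% at 1W, 61.5 ± 9.62% at 8W and 61.8 ± 7.87% at 9W. The lowest share at 8W or 9W was 50.8% and the highest at 0W 25.9%. Its share in Lgr5 GL cells was 32.8 ± 9.76% at 0W, 36.7 ± 3.60% at 1W, 23.5 ± 6.44% at 8W and 27.1 ± 0.712% at 9W. How reads that match both genes were counted is not given in the sources used here.

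The direction of these calls went with GC content. The 4 genes Rab18, Rab21, Rab1a and Rab1b have a GC content of 39.8, 42.7, 42.0 and 58.9% in their longest transcript, and Rab31 of 49.4%. Over the 41 members tested other than Rab31 in Lrig1 GL cells, Pearson's r between GC content and log2 fold change was -0.604 at 8W and -0.573 at 9W (Spearman's rho -0.806 and -0.752), across genes that share the same libraries and are not replicates. Over all 14252 genes with a GC content the values were -0.42 and -0.351. Of the 21 members at or below the members' median GC content of 48.1%, 17 were higher at 8W than at 0W, with a median log2 fold change of 1.13. Of the 20 above it, 5 were higher, with a median of -0.54. Over 49 members in Lgr5 GL cells r at 8W was 0.0576. The mean GC content of the counts of the Lrig1 GL libraries was lower at 8W and 9W, and mitochondrial counts were higher at 8W, as given above, and their part in these calls was not tested.

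When each library's trend of level on GC content was removed, none of the other 41 members was called at 8W or 9W. The number of all genes called at 8W fell under this setting too, as given below, and that at 9W is not given. The removal of the GC trend was chosen as an alternative after the data were seen. Rab21 then had a log2 fold change of 0.91 (adjusted p = 0.222) at 8W and 0.71 (adjusted p = 0.388) at 9W, Rab18 of 0.12 (adjusted p = 0.892) and 0.87 (adjusted p = 0.252), and Rab1b of -0.96 (adjusted p = 0.142) and -1.08 (adjusted p = 0.137). The log2 difference between populations at 8W became 0.69 for Rab18 (adjusted p = 0.606) and -1.19 for Rab1b (adjusted p = 0.183). Surrogate variables also ended the calls of Rab18, Rab21 and Rab1b at both times, with adjusted p from 0.129 (Rab18 at 9W) to 0.383 (Rab18 at 8W). Over 26 alternatives Rab21 was called in 20 at 8W and 7 at 9W, Rab18 in 6 and 19, and Rab1b in 18 and 17.

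**Figure D3:**
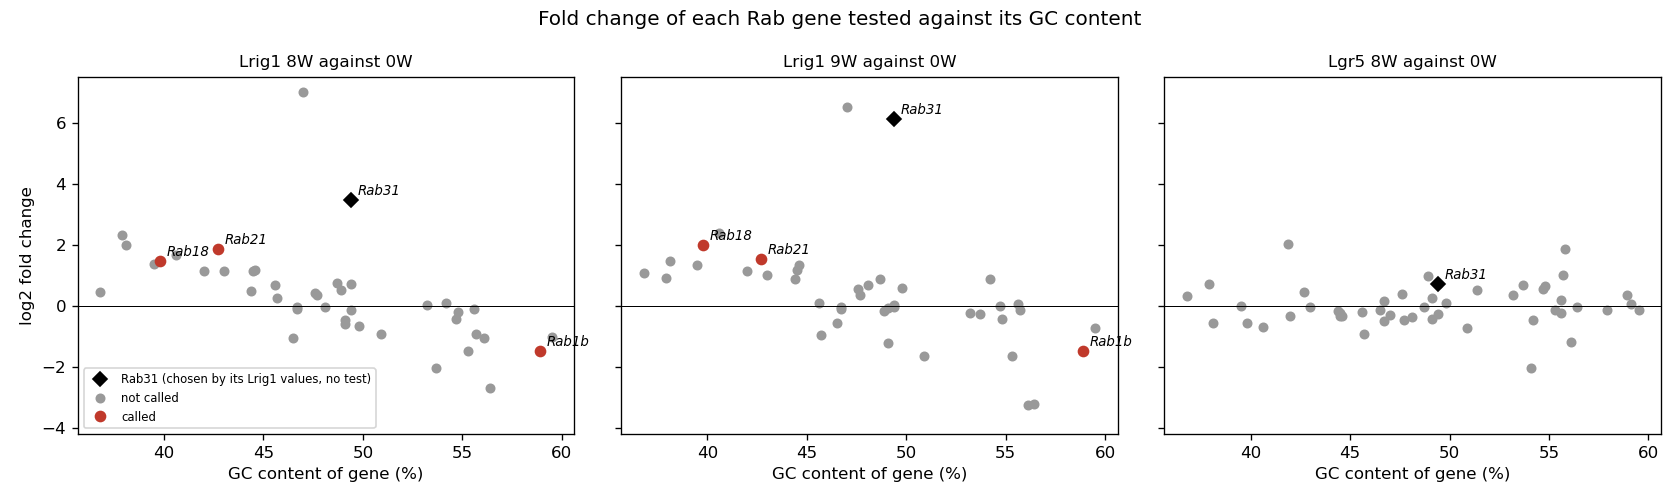
Log2 fold change against 0W (vertical axis) of each Rab gene tested against the GC content of its longest transcript in percent (horizontal axis) for Lrig1 GL cells at 8W and 9W and Lgr5 GL cells at 8W, with called genes in red and Rab31, chosen by its Lrig1 GL values and shown without a test, as a black diamond. Points slope down in both Lrig1 GL panels (Pearson's r without Rab31 of -0.604 and -0.573) and not in the Lgr5 GL panel (0.0576), and Rab31 lies above the slope. The grey point near 7 is Rab27a, which had 0 counts in all 3 Lrig1 GL libraries at 0W.

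Over the family as a whole, 42 of 49 members passed the filter on low counts in the Lrig1 GL table, where Rab2b, Rab4b, Rab6b, Rab26, Rab36, Rab42 and Rab44 did not, and 50 of 53 in the Lgr5 GL table, where Rab3b, Rab33a and Rab44 did not. Rab3b, Rab3c, Rab17 and Rab33a are in the Lgr5 GL table alone. Besides Rab31, 3 of 41 members (7.32%) were called at 8W and 3 of 41 at 9W in Lrig1 GL cells, beside 2.82% and 1.23% of all genes, and 2 of 41 (4.88%) across the time course, beside 1.63% of all genes. At 1W, 2W and 4W 0 of 41 were called, as were 0.217%, 0% and 0.0419% of all genes, and from 1W to 9W 0 of 41, with 0% of all genes. Besides Rab31, DESeq2 called Rab20 at 2W and Rab2a and Rab18 from 1W to 9W, the likelihood ratio test called Rab2a from 1W to 9W, and neither called a further member at 1W or 4W. At an unadjusted p under 0.05 the members besides Rab31 counted 2 at 1W, 4 at 2W, 3 at 4W, 14 at 8W and 17 at 9W, and 9 from 1W to 9W. For 1W, 2W and 4W this was 4.88, 9.76 and 7.32% of members, where all genes gave 11, 10.5 and 8.37%. For 8W and 9W it was 34.1 and 41.5%, where all genes gave 22.9 and 18.5%. From 1W to 9W it was 22%, beside 8.87% of all genes. The median log2 fold change of these 41 members lay between 0.07 and 0.22 in the 5 comparisons with 0W, and that of all genes between -0.06 and -0.01. All 3 libraries were above 0W for 12 members and below for 4 at 8W, and above for 11 and below for 7 at 9W. That was 39.0 and 43.9% of members, where 27.5 and 24.1% of all tested genes were apart. At 1W, 2W and 4W it was 19.5, 4.88 and 14.6%, beside 13.9, 11.4 and 10.6% of all genes. In Lgr5 GL cells the shares of members besides Rab31 were 16.3, 2.04, 14.3, 6.12 and 8.16% at 1W, 2W, 4W, 8W and 9W. Of all genes 19.9, 13.2, 14.3, 11.4 and 12.3% were apart there.

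Members just short of the threshold in Lrig1 GL cells were Rab14, a recycling Rab between endosomes and Golgi (log2 fold change 1.16 at 8W, adjusted p = 0.0531), and Rab6a of the Golgi (1.35 at 9W, adjusted p = 0.0631). Exons of Rab6a overlap Mrpl48 on the other strand, exons of Rab5a, Rab7, Rab10, Rab20 and Rab22a also overlap a gene on the other strand, and those of Rab11a and Rab27a one on the same strand, so that part of their counts is uncertain. Among members with a mean of at least 10 counts, to which this ranking is limited, the largest other positive values at 8W were those of Rab27b, a regulator of secretory granules (2.32, SE 0.87, adjusted p = 0.126), and Rab30 of the Golgi (2.01, SE 0.63, adjusted p = 0.0786). At 9W Rab8b, of polarised exocytosis, had 2.38 (SE 0.94, adjusted p = 0.188). Rab27b, with 1.23, Rab8b, with 1.20, and Rab28 of the cilium, with 0.82, had the largest values besides Rab31 at 1W under the same limit (adjusted p from 0.638 to 0.68). Under that limit, the 3 most negative values at each of these times included those of Rab15, described next, and of Rab43 of the Golgi, at -1.59 at 1W, -2.70 at 8W and -3.23 at 9W (adjusted p from 0.143 to 0.614), whose exons overlap Gm45140 over 3980 bases. Rab27a, a partner of Rab27b in granule docking, had 0 counts in all 0W libraries and at most 13 counts in a library at 1W, 58 at 8W and 39 at 9W, with 0 counts in at least 1 library at both later times.

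Rab15, which acts in endosomal recycling, had lower levels than before injury at 1W and 9W in every library of both populations, without a call. Lrig1 GL cells had 28.2, 73.2 and 40.2 CPM at 0W, 2.46, 12.9 and 18.7 CPM at 1W, and 19.7, 5.44 and 22.1 CPM at 9W. The log2 fold changes in Lrig1 GL cells were -2.03 (SE 1.04, adjusted p = 0.489) at 1W and -1.64 (SE 1.02, adjusted p = 0.401) at 9W. Lgr5 GL cells had 102, 99.2 and 114 CPM at 0W and 1.86, 60.1 and 57.4 CPM at 1W, with a log2 fold change of -1.41 (SE 0.70, adjusted p = 0.286). Its libraries at 1W, 2W, 4W and 9W were all below those at 0W in Lgr5 GL cells.

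In Lgr5 GL cells Rab8a, which delivers cargo to the plasma membrane and cilium, was the other member called. It had 39.8, 47.9 and 36.7 CPM at 0W and 133, 104 and 134 CPM at 1W, with no overlap, as for 19.9% of all genes. Rab8a rose by a log2 fold change of 1.55 (SE 0.35, 95% CI 0.82 to 2.29, adjusted p = 0.0378). Its levels at 9W were 98.3, 57.9 and 53.7 CPM, which was not a called difference (log2 difference from 1W of -0.81, adjusted p = 0.249). Its log2 fold change at 1W in Lrig1 GL cells was 0.56 (95% CI -0.35 to 1.46), and the difference between populations of -1.02 (95% CI -2.12 to 0.08, adjusted p = 0.369) was not called. Over 26 alternatives the Lgr5 GL call of Rab8a was held in 12, with an adjusted p up to 0.223 with surrogate variables, and 11 fits without a library lost it, with adjusted p from 0.0508 to 0.115. Rab31 and Rab8a were 2 of the 50 members tested at 1W, and 4 of the 49 besides Rab31 had an unadjusted p under 0.05 (8.16%, beside 18.6% of all genes). Rab32 and Rab38, of lysosome-related organelles, followed with log2 fold changes of 1.11 and 0.96 (adjusted p = 0.36 and 0.286). Rab17, a recycling Rab of polarised epithelia, had the most negative value, where it had 1 count in all 1W libraries and 109 of its 114 counts at 0W in 1 library (adjusted p = 0.131).

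At all later times no member was called in Lgr5 GL cells by edgeR's quasi-likelihood test, DESeq2 or the likelihood ratio test. Of all genes 0% were called at 2W, 0.155% at 4W, 0% at 8W and 0% at 9W, and 0.266% from 1W to 9W. At an unadjusted p under 0.05 the 49 members besides Rab31 counted 1, 2, 2, 2 and 3 in these comparisons, or 2.04, 4.08, 4.08, 4.08 and 6.12%, beside 8.79, 10.7, 5.94, 6.42 and 16.8% of all genes. Across the time course 0 of 50 members were called, where 1.13% of all genes were, while DESeq2 and the likelihood ratio test both called Rab8a and Rab31. Besides Rab31, 5 of 49 had an unadjusted p under 0.05 there (10.2%, beside 16.9% of all genes). At 8W, among members with a mean of at least 10 counts, the largest positive values were those of Rab25, a recycling Rab of epithelia (1.00, adjusted p = 0.737), and Rab12 of lysosomal transport (0.98, adjusted p = 0.871), and the most negative that of Rab36 of the Golgi (-2.03, adjusted p = 0.965).

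After TMM scaling, the summed level of all Rab genes was higher in every Lrig1 GL library at 8W and 9W than in those at 0W. Lrig1 GL libraries had 3294, 3889 and 4002 CPM at 0W, 3639 ± 377 CPM (SD, n = 3) at 1W, 5192 to 5902 CPM at 8W and 5116 to 6570 CPM at 9W. The sum in Lgr5 GL cells was 3495 ± 228 CPM at 0W, 3948 ± 358 at 1W, 3503 ± 193 at 8W and 3456 ± 178 at 9W. Rab31 itself was at most 118 CPM of the sum in a Lrig1 GL library. The mean sum at 8W exceeded that at 0W by 1712 CPM, which is the net of rises and falls. The 5 largest rises, of Rab14, Rab18, Rab11a, Rab10 and Rab1a, came to 1450 CPM. Other members rose too, such as Rab2a from a mean of 342 to 501 CPM, while Rab1b fell from 623.5 to 237.1 CPM. Of the 41 tested members besides Rab31, 22 were higher at 8W and 23 at 9W, with median log2 fold changes of 0.11 and 0.07. The shifts in mitochondrial counts at 8W and in GC content at 8W and 9W, given above, touch the same libraries, and their part in the sum was not tested. The sum also depends on the scaling. TMM factors, which together with library size divide the counts, were 1.18 to 1.26 at 0W in Lrig1 GL libraries. They were 0.895 to 1.01 at 8W and 0.936 to 1.10 at 9W, and their part in the sum was not tested. The 6 early endosome genes other than Rab31 together had 367 ± 84.6 CPM at 0W, 362 ± 50.0 at 1W and 466 ± 27.6 at 9W in Lrig1 GL cells. The same genes had 352 ± 63.4 at 0W, 422 ± 76.4 at 1W and 393 ± 29.7 CPM at 9W in the Lgr5 GL population. No test was made of these sums.

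**Figure D4:**
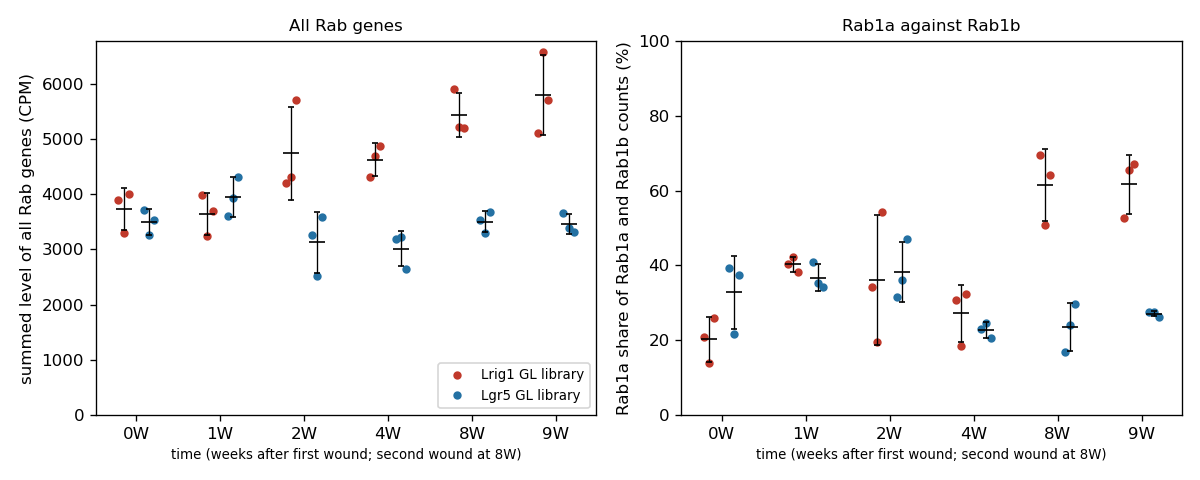
Summed level of all Rab genes in CPM (left) and the percentage of Rab1a in the counts of Rab1a and Rab1b (right) in each library by time, Lrig1 GL in red and Lgr5 GL in blue, with the mean and SD of 3 libraries in black. In Lrig1 GL cells the sum is at most 4002 CPM at 0W and at least 5116 CPM at 8W and 9W, and the Rab1a share goes from at most 25.9% at 0W to at least 50.8% at 8W and 9W.

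Averaged over the 6 times, 8 of 46 members besides Rab31 (17.4%) differed between Lrig1 GL and Lgr5 GL cells, beside 19.3% of all genes. Mouse line, count table and the share of Gm12415 differ between the populations too, and their part was not tested. Higher in Lrig1 GL cells were Rab32 and Rab38, which serve melanosomes and other lysosome-related organelles, Rab10 of polarised exocytosis and Rab27b. Rab32 had 33.0 to 203 CPM per kb over 18 Lrig1 GL libraries (median 106) and 2.62 to 57.7 (median 27.2) over 18 Lgr5 GL libraries, a log2 difference of 2.10 (SE 0.27, adjusted p = 5.57e-07). The log2 difference was 1.05 for Rab38, 1.07 for Rab10 and 1.97 for Rab27b (adjusted p from 1.76e-06 to 0.000633). Melanocyte markers summed to between 4.03 and 50.6 CPM (5 of 9 listed genes) in Lrig1 GL and between 13.0 and 99.7 CPM (6 of 9) in Lgr5 GL libraries, and Tyr, Tyrp1 and Mlana were in neither table. The part of melanocytes in these differences was not tested.

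Lower in Lrig1 GL cells were Rab4a, a Rab of rapid recycling, Rab6b of the Golgi, Rab34 of the Golgi and cilium, and Rab15. Rab34 had a median of 25.9 CPM per kb in Lrig1 GL and 48.4 in Lgr5 GL libraries, a log2 difference of -1.08 (SE 0.15, adjusted p = 1.73e-06). Rab4a was at 0 counts in 5 Lrig1 GL libraries and at most 9.81 CPM in the others, and lay between 1.76 and 24.5 CPM in Lgr5 GL libraries (log2 difference -2.80, SE 0.52, adjusted p = 0.000117). Rab6b was at 0 counts in 12 Lrig1 GL libraries and 1 Lgr5 GL library and reached 3.58 and 16.0 CPM (log2 difference -3.84, SE 0.84, adjusted p = 0.000899). Rab15 differed by -1.69 (SE 0.37, adjusted p = 0.000669). The difference of Rab31, given without a test, was -1.40. With the GC trend removed the log2 differences of Rab38 (0.99), Rab10 (0.81) and Rab34 (-0.48) were no longer past 1 in size. Those of Rab34 without Lgr5 GL 1W replicate 3 or 9W replicate 1 and of Rab38 without Lrig1 GL 1W replicate 3 were also just below it, from 0.963 to 0.995 in size, and Rab4a, Rab6b, Rab15, Rab27b and Rab32 were called in all 41 alternatives. Whether members changed differently at 1W was tested too. Besides Rab31, 0 of 46 were called by edgeR's quasi-likelihood test or DESeq2 (0.0495% of all genes by the former), while the likelihood ratio test called Rab27a. An unadjusted p under 0.05 was found for 4 (8.7%, beside 15% of all genes). At 9W 0 of 46 besides Rab31 were called, beside 0.155% of all genes, while the likelihood ratio test called Rab18 and Rab1b and DESeq2 these and Rab7. Here 12 had an unadjusted p under 0.05 (26.1%, beside 13% of all genes).

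**Figure D5:**
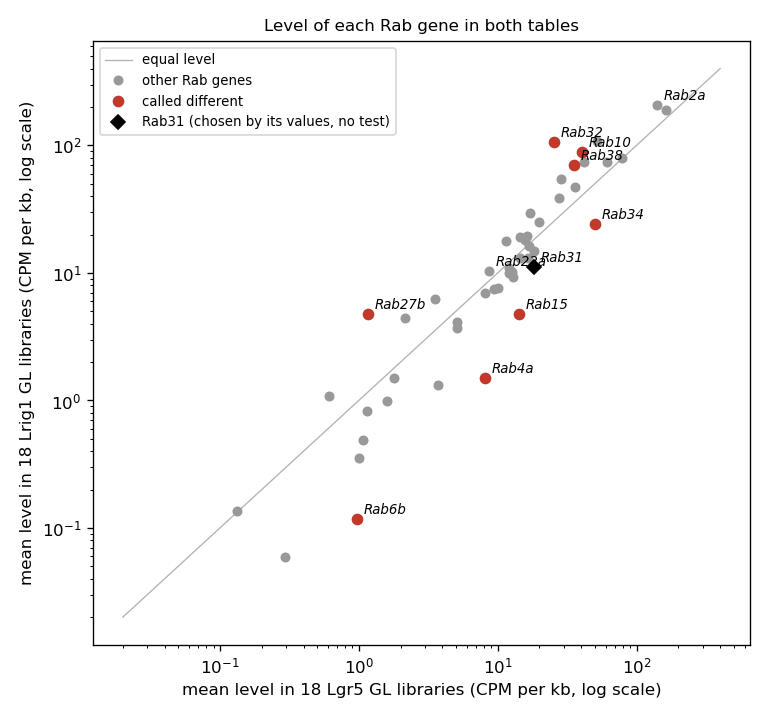
Mean level of each of the 49 Rab genes in both tables in CPM per kb, over 18 Lgr5 GL libraries (horizontal, log scale) and 18 Lrig1 GL libraries (vertical, log scale), with the grey line at equal levels the 8 genes called different in red and Rab31, chosen by its values and shown without a test, as a black diamond. Rab32, Rab10, Rab38 and Rab27b lie above the line and Rab4a, Rab6b, Rab34 and Rab15 below it.

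Across all members the order of levels was led by genes of basic transport. Rab2a, which acts between ER and Golgi, had 207.5 ± 73.2 CPM per kb (SD over 18 libraries) in Lrig1 GL cells, Rab1b 190.2 ± 95.8, Rab11a, the main Rab of recycling endosomes, 109 ± 52.9, Rab32 107 ± 53.4 and Rab10 89.2 ± 38.0. Rab1b led in Lgr5 GL cells with 163 ± 32.0 CPM per kb, before Rab2a with 140.4 ± 29.4, Rab7 of late endosomes with 78.8 ± 12.8, Rab25 with 61.7 ± 23.8 and Rab11a with 52.3 ± 12.3. Rab2a and Rab1b lay within 1 SD of each other in both populations, as did Rab11a, Rab32 and Rab10 in Lrig1 GL cells. Rab31 ranked 24 of 49 and 16 of 53 in these means, with 11.2 ± 10.3 and 18.2 ± 13.1 CPM per kb.

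The machinery that loads, activates and reads Rab proteins was followed with a list of 122 genes. Of these 102 were tested in Lrig1 GL cells, and at 8W 1 was called, Rabac1, a prenylated Rab acceptor, which fell by 1.5 on the log2 scale (SE 0.37, adjusted p = 0.0418). At 9W 1 was called, Appl1, an early endosome effector of Rab5 and Rab21, which rose by 2.38 on the log2 scale (SE 0.52, adjusted p = 0.035). At 1W, 2W and 4W 0 of 102 were called by edgeR's quasi-likelihood test, with 8, 7 and 2 at an unadjusted p under 0.05. Of the 113 tested in Lgr5 GL cells 2 fell at 1W, Appl2, the relative of Appl1 (log2 fold change -2.01, SE 0.44, adjusted p = 0.036), and Sgsm2, a GTPase-activating protein (-2.20, SE 0.53, adjusted p = 0.0477). The called shares were 0.98% at 8W, 0.98% at 9W and 1.77% at 1W, beside 2.82%, 1.23% and 1.29% of all genes. Across the time course 2 of the 113 were called in Lgr5 GL cells (1.77%, beside 1.13% of all genes). They were Rabac1 (adjusted p = 0.014, largest log2 fold change 1.22 in size) and the effector Myo5c (adjusted p = 0.0445, 6.54 in size). In Lrig1 GL cells 0 of 102 were called across the time course, beside 1.63% of all genes. The median log2 fold change of the 113 genes at 1W was -0.69, with 25 higher than 0W, where that of all genes was -0.08. The change of Rabac1 at 8W differed between populations (log2 difference -2.22, SE 0.46, adjusted p = 0.0219). Averaged over times 24 of 109 genes (22.0%, beside 19.3% of all genes) differed between populations, 14 higher and 10 lower in Lrig1 GL cells. Higher was Eea1, a tether of early endosomes that binds Rab5 (1.60, SE 0.19, adjusted p = 2.65e-07), and lower was Tbc1d30, a GTPase-activating protein (-3.35, SE 0.63, adjusted p = 0.000141).

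Likeness to Rab31 was measured as Pearson's r of log2(CPM + 1) over the 18 Lrig1 GL libraries, which differ in time and depth. Among 39 other members with a mean of at least 10 counts, Rab7 came first with r = 0.579, followed by Rab18 with 0.573, Rab6a with 0.542, Rab35, a recycling Rab, with 0.504 and Rab11a with 0.495, and Rab22a had 0.36. Over the 18 Lgr5 GL libraries these were -0.03, -0.173, -0.425, 0.161, 0.184 and 0.178. Among 10508 genes, leaving out names that start with Gm or end with Rik, the closest were Car2 (r = 0.923), S100a8 (0.908), Sprr2a1 (0.905), Supt16 (0.898) and Ldha (0.88). Over the Lgr5 GL libraries these genes had r of 0.261, 0.536, 0.276, 0.239 and 0.775. These correlations are descriptions, since Rab31 was chosen for its pattern in the Lrig1 GL libraries.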

How the data were processed

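The authors trimmed reads with Trim Galore 0.5.0, aligned them with HISAT2 to GRCm38 (mm10) and counted the reads on exons with featureCounts (by gene name, GENCODE M20), and deposited the raw counts per gene without normalization, in 1 table per population. No strand option and no rule for reads that match several genes are given in the sources used here. Libraries were made by a Smart-seq2 protocol from 3 mice per group. For 15 libraries the numbers of the columns are those of the labels. The other 21 could be matched to their time only and are called replicates a, b and c. Where nothing ties libraries to separate cell isolations, p-values measure the spread between these libraries.

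The tests were run with edgeR 4.0.16 under R 4.3.3 (filterByExpr with a minimum of 10 counts, TMM, prior count 0.125, quasi-likelihood F-test, Benjamini-Hochberg adjustment over all genes tested, 14306 in the Lrig1 GL table and 18025 in the Lgr5 GL table). Differences between populations were fitted over 16153 genes in both tables with 12 groups. Tests against 0W, across the time course and between population averages also needed a log2 fold change above 1 in size, other tests the adjusted p alone. An adjusted p in the text is edgeR's unless another tool is named. Single genes were not tested by permutation, which cannot pass 0.05 with 3 libraries against 3, so p-values come from the fits across all genes. Lengths, positions and GC content came from GENCODE M21 on GRCm38, which held 20055 of 20181 and 22436 of 22587 gene names. Promoters came from RefSeq (GRCm38.p6).

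The members, gene lists, roles and tests were chosen with earlier results of these data known. Named members were Rab31, its early endosome relatives, members called in any comparison, the 3 highest and 3 lowest log2 fold changes at 1W, 8W and 9W among members with a mean of at least 10 counts, of which those not called are given in part, the 5 members of highest level per kb, and the 5 members and 5 genes most like Rab31. Rab14, Rab6a and Rab27a were added after their values were seen, as were Eea1 and Tbc1d30 among the pathway genes. Alternatives were the likelihood ratio test, DESeq2 1.42.0, its size factors, no filter, surrogate variables from sva 3.50.0 (5 for Lrig1 GL, 4 for Lgr5 GL), a replicate block, a prior count of 2, leaving out each library and, chosen after the data were seen, removal of each library's trend on GC content. In simulated data the quasi-likelihood test of Lrig1 GL 8W against 0W over 13621 genes called 0% of genes changed by 1 on the log2 scale, 16.9% of those changed by 2 and 28.6% of those changed by 3. The paper's other assays were not analysed here.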

Additional observations from a re-analysis of the deposited data

Results flagged for a closer look

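A test of the difference between populations picked out Rab18 and Rab1b. The log2 change from 0W to 8W was larger in Lrig1 GL than in Lgr5 GL cells by 2.10 for Rab18 (adjusted p = 0.0486) and lower by a difference of -1.77 for Rab1b (adjusted p = 0.0278), by edgeR's quasi-likelihood test. Within the populations the log2 fold changes were 1.48 and -0.54 for Rab18 and -1.47 and 0.37 for Rab1b. Over 41 alternatives the call of Rab18 was held in 7 (adjusted p over all 41 from 0.00472 to 0.606) and that of Rab1b in 34 (from 0.00208 to 0.183), and both were lost with the GC trend removed. No group has 4 or more libraries, so single libraries were not tested for standing apart.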

How the results depend on the processing

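No result reversed its direction in any alternative. The count of members called between population averages (9) stayed within 1.5 times. It was 9 to 13 when a library was left out, beside 3046 to 3384 of all genes. Numbers of called members below include Rab31, whose Lrig1 GL values chose it, so that its calls there are no test. The likelihood ratio test called 1 at 2W, 1 at 4W, 8 at 8W, 1 from 1W to 9W and 9 across the time course in Lrig1 GL cells (0, 0, 4, 0 and 3 as reported), 2 across the time course in Lgr5 GL cells, and 2, 5 and 3 members whose change at 1W, 8W and 9W differed between populations (0, 2 and 1 as reported). DESeq2 called 2, 1, 11 and 8 at 2W, 4W, 8W and 9W, 2 from 1W to 9W and 8 across the time course in Lrig1 GL cells, 2 across the time course in Lgr5 GL cells, and 1, 10 and 4 for the differences. DESeq2's size factors gave 2 for the difference at 9W. Without a filter 1 was called at 1W in Lgr5 GL cells and 1 for the difference at 8W. With surrogate variables 0, 0 and 1 were called at 1W, 8W and 9W and 0 across the time course in Lrig1 GL cells, and 0 at 1W in Lgr5 GL cells. With the GC trend removed 1 was called at 2W, 4W, 8W, 9W and across the time course in Lrig1 GL cells, with 0 besides Rab31, and 0 for the difference at 8W. At 8W in Lrig1 GL cells the number of all genes called changed with the setting too, as given below. For the other comparisons it is given for fits without 1 library only, so the other counts of members here are not set against all genes. The cause of these changes was not tested.

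The replicate numbers did not pair the libraries (same-numbered libraries had deviations from the group means with a mean r of -0.00644 over 33 Lrig1 GL pairs and 0.00393 over 32 Lgr5 GL pairs). With the number as a replicate block, 0, 2 and 0 members were called at 8W, at 9W and across the time course in Lrig1 GL cells and 1 at 1W in Lgr5 GL cells, and the other counts within populations were unchanged. The comparisons between populations were not fitted with the block.

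Leaving out 1 library gave 0 to 1 called members at 1W, 2W and 4W, 0 to 5 at 8W, 1 to 4 at 9W and 1 to 4 across the time course in Lrig1 GL cells, 0 to 2 at 1W in Lgr5 GL cells, and 0 to 1, 0 to 2 and 0 to 2 for the differences at 1W, 8W and 9W. Of all genes, these fits called 0 to 63, 0 to 37 and 0 to 18 at 1W, 2W and 4W in Lrig1 GL cells. They called 2 to 257 at 9W and 47 to 477 across the time course there, and 16 to 405 at 1W in Lgr5 GL cells. For the differences at 1W, 8W and 9W they called 0 to 196, 13 to 351 and 0 to 52 of all genes. Rab21 at 8W lost its call without Lrig1 GL 0W replicate 1, 0W replicate 3 or 8W replicate a, and Rab1b at 8W without 0W replicate 1 or 3 or any 8W library. The Lrig1 GL count at 8W was 0 without 0W replicate 1 or 8W replicate a. Of all genes 404 were called at 8W in Lrig1 GL cells, against 1408 by the likelihood ratio test, 1592 by DESeq2, 226 without a filter, 83 with the GC trend removed, 28 with the block, 7 with surrogate variables and 7 to 604 without 1 library. With 3 libraries per group and low depth for members such as Rab27a and Rab20, no change of these genes was called by edgeR's quasi-likelihood test. DESeq2 called Rab20 at 2W in Lrig1 GL cells, and the likelihood ratio test called the difference of Rab27a at 1W, as given above.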
